A study of Mus musculus with 6 samples.

Results

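The 9 genes described here, Smarcc1, Ptch1, Pik3ca, Mtor, L1cam, Ap1s2, Mpdz, Ccdc88c and Foxj1, are mouse counterparts of genes known for congenital hydrocephalus, and Trim71 itself was left aside. They were chosen by name, as rows of the deposited count table, and all 9 were found among its 27179 Entrez identifiers and passed the filter on low counts. The data are poly(A)-selected RNA sequencing of mouse embryonic stem cells from the ES-E14TG2a line, 3 libraries per group. In both groups Trim71 carried a FLAG tag, and the groups differed in its sequence, which was wild type (WT) or had the R783H amino-acid change, so the WT group is a tagged line and not the untouched parent. All cells grew on gelatin in medium with LIF and the inhibitors CHIR99021 (against GSK3) and PD0325901 (against MEK). The labels do not say whether replicates A, B and C are clones, cultures or library preparations, and p-values therefore measure the spread between these libraries, which may be technical.

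Congenital hydrocephalus is an enlargement of the fluid-filled brain ventricles present at birth. Its known genes act in neural progenitor growth and signalling (SMARCC1, PTCH1, PIK3CA, MTOR), in axon growth and vesicle traffic (L1CAM, AP1S2), and in the polarity, junctions and motile cilia of the cells that line the ventricles (MPDZ, CCDC88C, FOXJ1). Trim71 is an RNA-binding protein of early embryos and stem cells, and a change at the matching residue of human TRIM71 has been linked to the same disorder. Most of these genes are studied in neural tissue, whereas the present libraries come from pluripotent cells. Values written with ± are means and SDs over the 3 libraries of a group (n = 3).

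The libraries held 20894277 to 29079670 counts, with the R783H libraries all deeper than the WT ones. All 10 pluripotency markers examined were tested. Their summed level was 7456 to 7586 CPM, counts per 1e6 after scaling, in R783H and 7616 to 7716 CPM in WT. Within that sum 2 markers were called higher and 3 lower, where 33.5% and 30.9% of all tested genes were. Nanog was among those lower (log2 fold change -0.23, adjusted p 2.79e-04 by edgeR) and Dppa5a among those higher (0.30, adjusted p 4.72e-04 by edgeR). Of 7 ependymal and choroid plexus markers, 6 had no more than 3 counts in any library, with Tmem212 and Rarres2 at 0. The sum of the 7 was 11.01 to 12.1 CPM in R783H and 2.62 to 3.23 CPM in WT, and came mainly from Otx2. Otx2 was the only one tested (2.04, adjusted p 1.16e-07 by edgeR). The rise of the sum is thus that of 1 gene and not of the marker set. Neural progenitor markers summed to 34.1 to 37.1 CPM in R783H and 32.2 to 32.7 CPM in WT. Of these markers, 4 of 7 had no more than 3 counts in any library. Sox1 rose from 8.51 ± 0.523 CPM in WT to 13.5 ± 1.27 CPM in R783H (0.66, adjusted p 1.01e-04 by edgeR). Nes was lower in every R783H library but was not called (-0.12, adjusted p 0.105 by edgeR). Pax6, not tested, had 0 to 4 counts in R783H libraries and 3 to 9 in WT libraries. Neuron markers summed to 333 to 369 CPM and 331 to 334 CPM, mainly from Stmn2, with Dcx at 0 throughout. Within that sum Tubb3 fell from 85.0 ± 2.58 CPM in WT to 48.8 ± 5.63 CPM in R783H (-0.80, adjusted p 3.38e-06 by edgeR). Stmn2 rose from 246.1 ± 1.30 to 299.3 ± 14.1 CPM (0.28, adjusted p 2.08e-04 by edgeR). Map2 rose from 1.22 ± 0.211 to 2.38 ± 0.414 CPM (0.96, adjusted p 0.00176 by edgeR). Primitive endoderm markers summed to 10.2 to 11.04 CPM in R783H and 5.14 to 7.48 CPM in WT, and fibroblast markers to 2.08 to 3.03 CPM and 3.23 to 3.71 CPM. Of the endoderm markers Gata4 (1.08) and Sox17 (1.29) were called higher. Sox7, not tested, had 2 to 4 counts in R783H libraries and 9 to 19 in WT libraries. Of the fibroblast markers Thy1 alone was called (-2.74, adjusted p 4.09e-05 by edgeR), and Col1a2, not called, was higher in every R783H library. The part of these other cell types in the differences given here was not tested, and in bulk RNA a change in the share of cells of a type cannot be told apart from a change of RNA per cell. Trim71 mRNA ran from 129.0 to 151.7 CPM in R783H and from 130.8 to 159.4 CPM in WT, and was not called (0.03, adjusted p 0.743 by edgeR) except with an offset for transcript length and GC content (-0.21, adjusted p 0.0127 by edgeR). A count per gene does not see the amino-acid change and so does not check the labels.

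R783H cells had more Ptch1, Pik3ca, Mtor, Ccdc88c and L1cam mRNA than WT cells, less Foxj1 and slightly less Smarcc1. The increases were 1.25-fold to 1.44-fold in the 4 abundant genes and 2.32-fold in L1cam, whose counts were low. Ap1s2 and Mpdz did not pass the test. Thus 7 of 9 genes (77.8%) were called, meaning a Benjamini-Hochberg adjusted p below 0.05 in the quasi-likelihood test of edgeR, against 64.5% of all 14199 tested genes. Of these 7, 5 were higher, where 33.5% of all genes were called higher, and 2 were lower, where 30.9% of all genes were. CPM values did not overlap between the groups for 8 of the 9 genes, against 68.1% of all tested genes. In R783H, 5 were entirely above WT (35.0% of all genes) and 3 entirely below (33.1% of all genes). The share called in either direction lies near that of all genes, and with 9 members nothing particular to them is read from these counts. The median log2 fold change of the 9 genes was 0.32, and that of all tested genes 0.03.

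**Figure D1:**
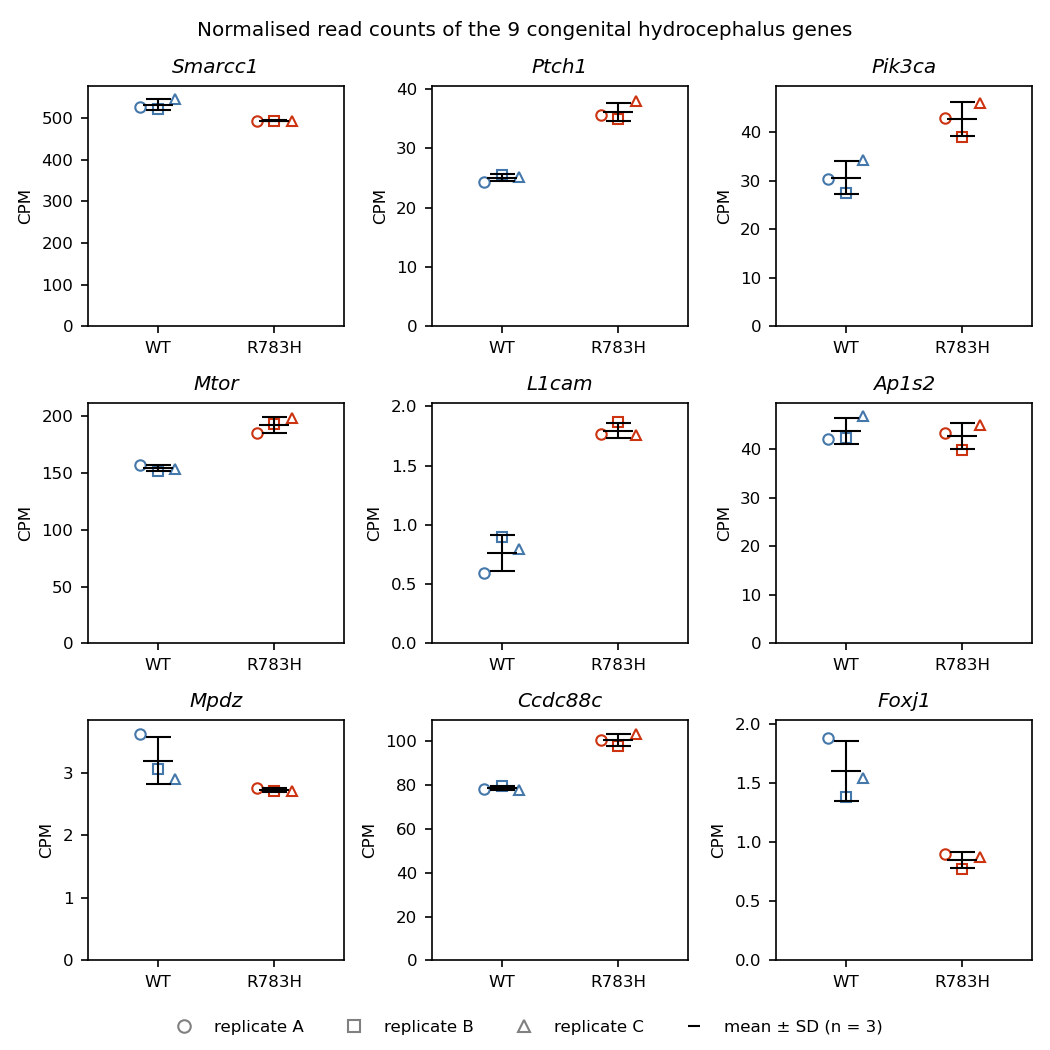
Normalised read counts (CPM, linear axes from 0) of the 9 genes in each of the 3 WT and 3 R783H libraries, with bars for mean ± SD. The groups are separate for all genes but Ap1s2, and the L1cam, Mpdz and Foxj1 axes reach less than 4 CPM.

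Transcript length bears on these values. Log2 fold changes increased with transcript length across 13067 genes (Spearman's rho 0.26, across genes, which are not independent replicates). The 9 genes are long, with a median of 7518 nt against 3364 nt for all genes with a length. The fit was therefore repeated with an offset for transcript length and GC content, after which rho was 0.02. With it 8 of the 9 genes were called, 5 higher and 3 lower, where 68.6% of all genes were called, 35.6% higher and 33.1% lower. The same 5 genes were higher, each by less than without it, and the median of the 9 genes was 0.11. Why fold changes follow length in these libraries was not tested.

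**Figure D2:**
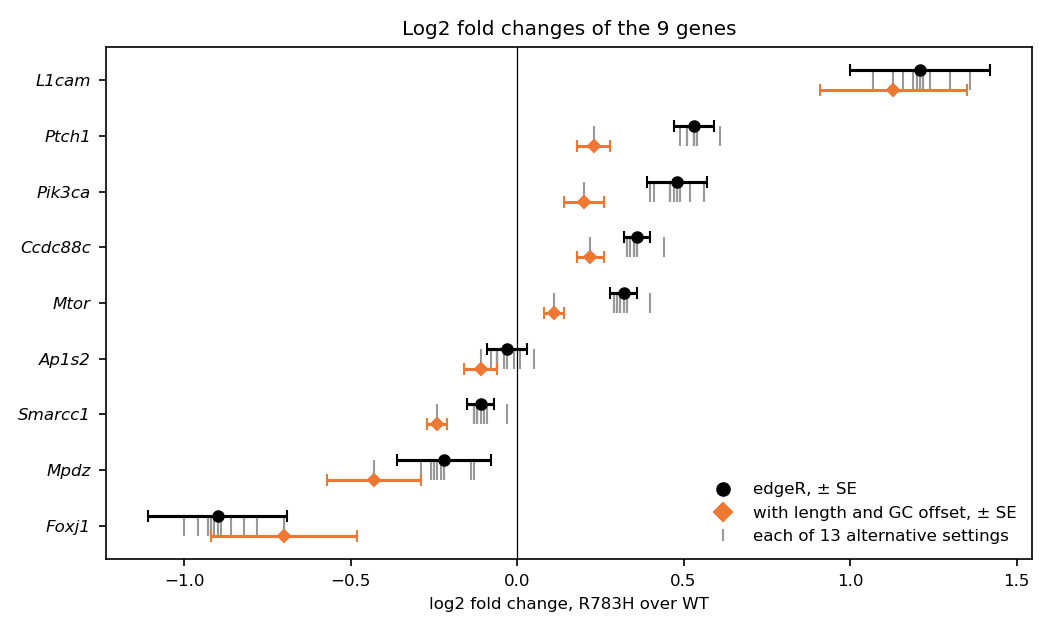
Log2 fold changes (R783H over WT, horizontal axis) of the 9 genes from the edgeR fit (circles, ± SE) and from the fit with the length and GC offset (diamonds, ± SE), with a tick for each of 13 alternative settings. Ptch1, Pik3ca, Mtor and Ccdc88c stay right of 0 at smaller values under the offset, while L1cam and Foxj1 keep most of their size.

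Per kilobase of the longest annotated transcript, the genes spanned a wide range in WT. Smarcc1 stood at 92.1 ± 2.25 CPM per kb (SD, n = 3 here and for the other levels), followed by Mtor at 17.98 ± 0.323, Ap1s2 at 13.7 ± 0.823 and Ccdc88c at 10.4 ± 0.118 CPM per kb. Pik3ca had 3.44 ± 0.386 and Ptch1 2.41 ± 0.0556 CPM per kb. Foxj1 (0.612 ± 0.0963), Mpdz (0.425 ± 0.0496) and L1cam (0.149 ± 0.0301 CPM per kb) were lowest. All WT neighbours in this order differed by more than the sum of their SDs. In R783H the first 6 places were held by the same genes in the same order, but Ap1s2 (13.4 ± 0.812) and Ccdc88c (13.3 ± 0.355 CPM per kb) no longer differed by more than their spread. Mpdz (0.362 ± 0.00426), L1cam (0.350 ± 0.0122) and Foxj1 (0.324 ± 0.0251 CPM per kb) came last, each within the spread of its neighbour.

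**Figure D3:**
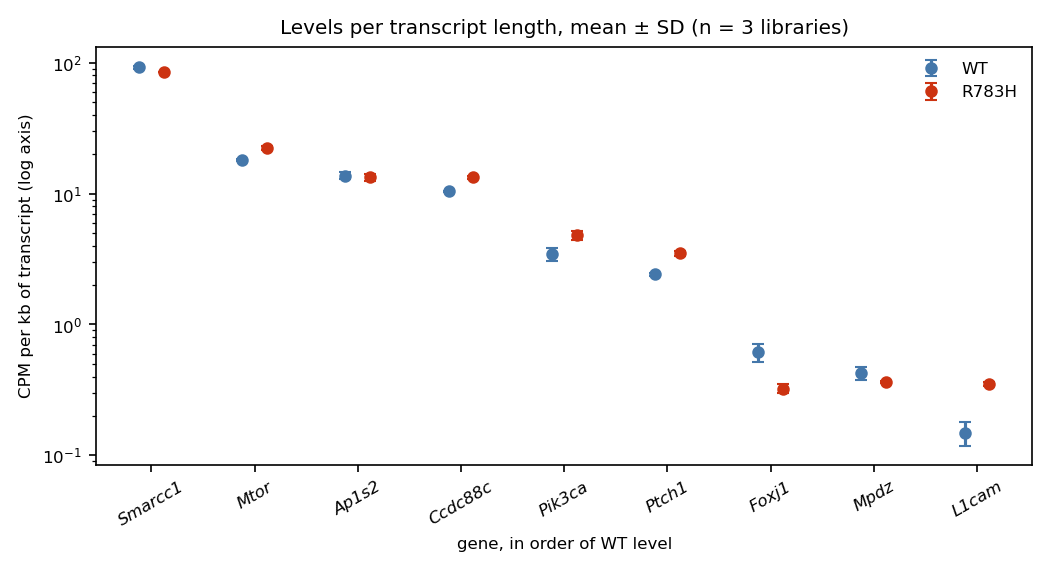
Level of each gene per kilobase of its longest transcript (CPM per kb, log axis) in WT and R783H, mean ± SD of 3 libraries, ordered by WT level. Smarcc1 lies far above the rest, and L1cam, lowest in WT at 0.149, reaches the levels of Mpdz and Foxj1 in R783H.

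Smarcc1 (Entrez 20588, chr9:110117708-110240178 on GRCm38, + strand) encodes BAF155, a core subunit of the BAF chromatin remodelling complexes, which move nucleosomes in stem cells and neural progenitors. R783H A, B and C had 493.4, 492.2 and 493.8 CPM, and WT A, B and C had 526.7, 522.1 and 546.5 CPM. Every R783H library lay below every WT library, by a small margin. Its log2 fold change was -0.11 (SE 0.04), 1.08-fold lower, with an adjusted p of 0.0284 by edgeR. The call was lost in 8 of 13 alternative settings. Among them were scaling by library size alone (-0.03, adjusted p 0.543 by edgeR), no filter on low counts (-0.10, adjusted p 0.0584 by edgeR), and the fits without R783H A, R783H C, WT A, WT B or WT C, where adjusted p by edgeR ran from 0.0590 to 0.105. The length and GC offset made it larger, at -0.24 (adjusted p 3.57e-06 by edgeR). Exons of Smarcc1 share 123 bases (1.57%) with those of Dhx30 on the opposite strand, and Dhx30 itself was lower (-0.18, SE 0.05, adjusted p 0.0120 by edgeR).

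Other BAF and PBAF subunits moved both ways. Of 25 tested genes, 8 passed as higher and 8 as lower, and their median was 0.05 (-0.02 with the length and GC offset). For comparison with this list and those below, 33.5% of all tested genes were called higher and 30.9% lower. The number higher was 13 with library size alone and 4 without R783H C or without WT A. The paralog Smarcc2, which encodes BAF170 and takes the place of BAF155 in part of the complexes, rose from 55.7 ± 0.586 CPM in WT to 78.7 ± 1.72 CPM in R783H, and its log2 fold change was 0.50 (SE 0.05, adjusted p 3.44e-06 by edgeR). The 2 scaffold paralogs thus differed in direction, with groups apart for both. The Smarcc1 difference was small (-0.11), however, and its call was lost in most alternative settings, as given above. Dpf1, a subunit of neuronal BAF, fell from 22.2 ± 1.81 CPM in WT to 11.5 ± 0.488 CPM in R783H (-0.95, SE 0.08, adjusted p 1.84e-06 by edgeR). Smarca2, the alternative ATPase, rose by 0.85 (SE 0.26, adjusted p 0.0125 by edgeR) at 1.39 CPM in WT, and its adjusted p was 0.0505 without R783H C, 0.0502 without WT A and 0.0514 without WT B. Smarcd3 changed by -0.69 (SE 0.09, adjusted p 6.53e-05 by edgeR), but 48.2% of its exon bases lie in exons of Chpf2 on the other strand. With the length and GC offset 6 BAF genes were higher and 11 lower.

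Ptch1 (Entrez 19206, chr13:63508328-63573598, - strand) encodes the Hedgehog receptor that holds Smoothened inactive until ligand binds, and it is itself a target of the pathway. It had 35.6, 35.0 and 37.9 CPM in R783H A, B and C and 24.4, 25.5 and 25.2 CPM in WT. The groups were far apart relative to their spread, with a log2 fold change of 0.53 (SE 0.06, 1.44-fold, adjusted p 1.31e-05 by edgeR). It was 0.23 (adjusted p 9.08e-04 by edgeR) with the length and GC offset. Its transcript of 10383 nt is the longest of the 9.

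Other Hedgehog genes did not follow Ptch1 as a group, with 5 of 18 tested called higher, 6 lower and the median at -0.09. Gli1, the transcription factor whose own mRNA is the usual readout of Hedgehog activity, had 7.99, 7.68 and 6.21 CPM in R783H and 16.0, 16.2 and 16.1 CPM in WT. It was lower in every R783H library, by 2.21-fold (log2 fold change -1.14, SE 0.10, adjusted p 1.90e-06 by edgeR), and 5.31% of its exon bases lie in exons of the antisense gene Gm47200. Ptch1 therefore rose where Gli1 fell, and these directions held with the offset, at 0.23 for Ptch1 and -1.08 for Gli1. Smo, which encodes Smoothened, rose from 31.5 ± 0.730 CPM in WT to 47.9 ± 0.384 CPM in R783H (log2 fold change 0.60, SE 0.05, adjusted p 1.85e-06 by edgeR). Of the remaining GLI factors, Gli3 rose by 0.62 (SE 0.09, adjusted p 1.21e-04 by edgeR) and Gli2 was not called (0.07, SE 0.05, adjusted p 0.182 by edgeR). The coreceptor genes Boc (0.85, SE 0.12, adjusted p 7.84e-05 by edgeR) and Cdon (0.81, SE 0.08, adjusted p 3.58e-06 by edgeR) both rose. The ligand genes Shh and Ihh were too low to be tested.

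**Figure D4:**
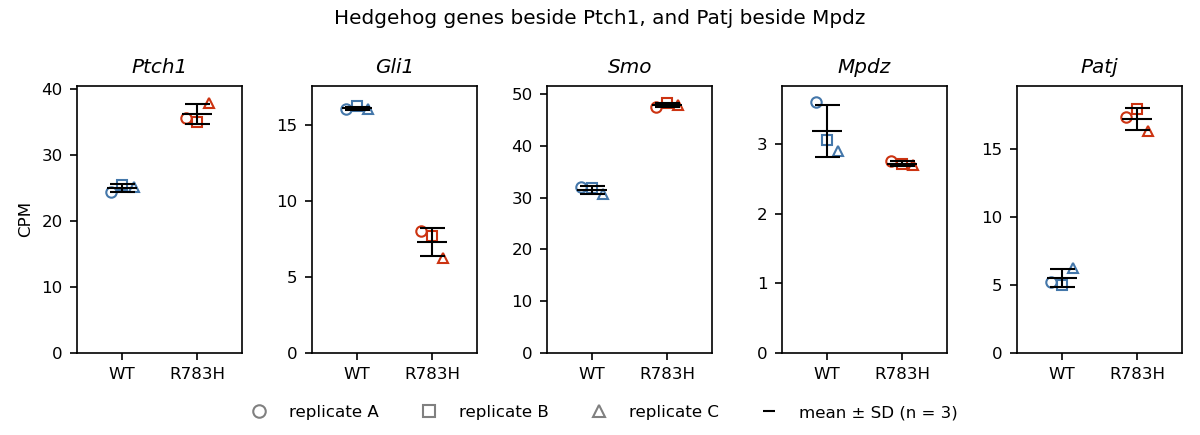
CPM (linear axes from 0) of Ptch1, Gli1 and Smo, and of Mpdz and its paralog Patj, in each library, with mean ± SD. Ptch1, Smo and Patj are higher in all R783H libraries, Gli1 is lower, and the Mpdz values of 2.70 to 2.76 CPM in R783H lie just under those of WT.

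Pik3ca (Entrez 18706, chr3:32397671-32468486, + strand) encodes the p110-alpha catalytic subunit of PI3-kinase, which passes insulin and growth factor signals to AKT. It had 42.9, 39.1 and 46.2 CPM in R783H and 30.4, 27.4 and 34.3 CPM in WT, libraries A to C. Values varied more within groups than for Ptch1 but did not overlap. This gave a log2 fold change of 0.48 (SE 0.09, 1.39-fold, adjusted p 4.93e-04 by edgeR), and 0.20 (adjusted p 0.00835 by edgeR) with the length and GC offset.

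Mtor (Entrez 56717, chr4:148448611-148557683, + strand) encodes the kinase of the complexes mTORC1 and mTORC2, which control cell growth downstream of AKT. Its values were 184.7, 193.1 and 198.4 CPM in R783H and 156.9, 151.4 and 153.6 CPM in WT, again without overlap. Its log2 fold change was 0.32 (SE 0.04, 1.25-fold, adjusted p 7.08e-05 by edgeR). Under the length and GC offset it was 0.11, in proportion the largest reduction among the members called higher (adjusted p 0.0129 by edgeR).

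Among 30 further genes of the PI3K-AKT-mTOR pathway, all tested, 11 passed as higher and 12 as lower, and the median was 0.03 (-0.07 with the length and GC offset, -0.02 without R783H A). The increases included the receptor gene Insr, from 13.5 ± 1.34 CPM in WT to 28.2 ± 2.54 CPM in R783H (log2 fold change 1.07, SE 0.09, adjusted p 1.95e-06 by edgeR). Pik3r1, the regulatory partner of p110-alpha, rose from 25.6 ± 2.48 CPM in WT to 49.4 ± 4.39 CPM in R783H (0.94, SE 0.08, adjusted p 2.58e-06 by edgeR). Tsc1, part of the complex that restrains mTORC1, rose by 0.62 (SE 0.05, adjusted p 1.85e-06 by edgeR). Activators and inhibitors were thus among the increases. Among the 12 genes called lower were Akt1 (-0.33, adjusted p 2.82e-04 by edgeR) and Rheb (-0.48, adjusted p 8.03e-06 by edgeR). Pik3r2 (-0.40, adjusted p 6.05e-05 by edgeR) and Tbc1d7 (-0.58, adjusted p 1.74e-04 by edgeR) were lower too. Pik3cb (0.16), Rptor (0.16) and Rictor (0.29), called higher with adjusted p values from 0.00465 to 0.0102 by edgeR, were not called with the length and GC offset, where 8 pathway genes were higher and 13 lower.

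Ccdc88c (Entrez 68339, chr12:100911523-101029056, - strand) encodes DAPLE, which binds Dishevelled and acts in Wnt signalling and in the alignment of cilia and cell junctions. It had 100.4, 97.8 and 103.1 CPM in R783H and 78.0, 79.5 and 77.9 CPM in WT. These libraries agreed closely within groups, and all R783H values were higher, by a log2 fold change of 0.36 (SE 0.04, 1.28-fold, adjusted p 3.53e-05 by edgeR), and 0.22 (adjusted p 1.29e-04 by edgeR) with the length and GC offset. An antisense gene, A630072L19Rik, shares 472 exon bases with it (4.15%), and had 6 to 12 counts in R783H libraries and 2 to 4 in WT libraries, against 1576 or more for Ccdc88c.

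Of 21 tested genes of the Dishevelled and planar cell polarity group, 12 passed as higher and 3 as lower (5 with the length and GC offset), and the median was 0.17. Among all tested genes 33.5% were called higher and 30.9% lower. This system orients cells and their cilia within the plane of a sheet. Prickle2, a core polarity component, rose from 7.82 ± 0.373 CPM in WT to 21.8 ± 0.561 CPM in R783H (log2 fold change 1.48, SE 0.07, adjusted p 7.24e-08 by edgeR). Ankrd6, the counterpart of the fly gene diego, rose by 0.93 (SE 0.08, adjusted p 1.90e-06 by edgeR). The paralogs of Ccdc88c changed in opposite directions, with Ccdc88a, which encodes girdin, at 0.77 (SE 0.13, adjusted p 3.52e-04 by edgeR) and Ccdc88b, low in these cells, at -0.86 (SE 0.15, adjusted p 5.14e-04 by edgeR). Ccdc88a was 29.4 CPM in R783H B against 41.2 and 41.6 CPM in R783H A and C.

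L1cam (Entrez 16728, chrX:73853778-73896105, - strand) encodes a cell adhesion molecule of growing axons, and its loss is the classic cause of X-linked hydrocephalus. It was counted 53, 53 and 52 times in the R783H libraries and 12, 22 and 17 times in the WT libraries A to C, which is 1.76, 1.87 and 1.76 CPM against 0.594, 0.897 and 0.797 CPM. The R783H libraries were nearly equal and all above WT, which had few counts (the floor of 3 counts is 0.103 to 0.144 CPM). The log2 fold change was 1.21 (SE 0.21, 2.32-fold, adjusted p 3.60e-04 by edgeR), the largest of the 9 in size, and 1.13 (adjusted p 2.76e-04 by edgeR) with the length and GC offset. Over 13 alternative settings it stayed between 1.07 and 1.36. Exons of Arhgap4, its neighbour on the same strand, overlap those of L1cam by 100 bases (1.36%). Arhgap4 also rose, from 4.69 ± 0.387 CPM in WT to 8.50 ± 0.333 CPM in R783H (log2 fold change 0.86, SE 0.10, adjusted p 2.32e-05 by edgeR), and the part of shared reads in the L1cam counts was not tested.

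Among 12 genes of the L1 family and its partners, 8 were tested, of which 5 were called higher and 2 lower. The shares over all tested genes were 33.5% and 30.9%. The number lower was 0 without R783H A or WT C, and 1 without WT A, without WT B, with library size alone or with DESeq2. The relative Nrcam went the other way from L1cam, with 16, 21 and 25 counts in R783H and 24, 27 and 28 in WT (log2 fold change -0.76, SE 0.24, adjusted p 0.0161 by edgeR), and its adjusted p reached 0.0605 among the alternatives. Chl1 had at most 3 counts in any library and was not tested. The integrin gene Itgav, whose product binds L1 proteins, rose from 37.0 ± 2.31 CPM in WT to 77.9 ± 5.17 CPM in R783H (log2 fold change 1.07, SE 0.07, adjusted p 2.26e-07 by edgeR). Ank3, which links L1 family proteins to the spectrin skeleton, rose by 0.94 (SE 0.06, adjusted p 4.33e-07 by edgeR). Ank2 rose by 0.68 (SE 0.20, adjusted p 0.00961 by edgeR), but was not called without WT B (0.56, adjusted p 0.0523 by edgeR) or with the length and GC offset (0.30, adjusted p 0.163 by edgeR).

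The bases just before the start sites of members that rose together are shown to let their composition be compared. RefSeq windows on GRCm38.p6 were found for 6 of the 9 genes, among them Ptch1, Pik3ca, Mtor and L1cam. Each line gives the 150 bases before an annotated start in the gene's direction, with CG dinucleotides, the sites of DNA methylation, in capitals. They lie at chr13:63565736-63565885 (- strand, Ptch1), chr3:32396915-32397064 (+ strand, Pik3ca), chr4:148448432-148448581 (+ strand, Mtor) and chrX:73880835-73880984 (- strand, L1cam, the more upstream of 2 windows), and none of these bases falls in an annotated exon. The Ptch1 and L1cam starts lie within the gene's span, downstream of a more distant annotated start. The Pik3ca and Mtor starts lie before the gene's span given above. For these genes the bases just after the start were not found in any GENCODE transcript of the gene.
Ptch1: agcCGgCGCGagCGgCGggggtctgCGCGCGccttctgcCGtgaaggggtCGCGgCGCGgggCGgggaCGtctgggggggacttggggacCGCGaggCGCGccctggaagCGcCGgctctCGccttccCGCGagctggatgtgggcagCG
Pik3ca: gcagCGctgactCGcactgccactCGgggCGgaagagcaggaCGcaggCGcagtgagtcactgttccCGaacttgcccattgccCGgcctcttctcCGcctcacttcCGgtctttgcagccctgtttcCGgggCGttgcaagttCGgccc
Mtor: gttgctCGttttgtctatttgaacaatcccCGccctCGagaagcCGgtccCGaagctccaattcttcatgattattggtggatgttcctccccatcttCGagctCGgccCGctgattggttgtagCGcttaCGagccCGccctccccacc
L1cam: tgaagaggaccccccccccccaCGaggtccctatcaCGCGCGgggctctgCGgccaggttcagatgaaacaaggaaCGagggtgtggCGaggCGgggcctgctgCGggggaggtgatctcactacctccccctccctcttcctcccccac
Over the 250 bases before the start, Ptch1 held 41 CG dinucleotides, Pik3ca 19, Mtor 19 and L1cam 12 (20 in its other window, not printed), where the median of 32851 RefSeq windows was 6. Mtor held 4 copies of CCAAT (either strand), 4 or more of which stand in 0.84% of all windows and at least 1 in 33.8%. No window of the 6 genes held GACCACCCA, a GLI-type motif, on either strand, which 0.225% of windows hold. These counts describe the windows and no value here measures the activity of any of them.

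Foxj1 (Entrez 15223, chr11:116330704-116335399, - strand) encodes the transcription factor that switches on the genes of motile cilia, and ependymal cells need it to move cerebrospinal fluid. It was counted 27, 22 and 26 times in R783H and 38, 34 and 33 in WT, or 0.898, 0.775 and 0.878 CPM against 1.88, 1.39 and 1.55 CPM. All R783H libraries were lower although they were deeper. The log2 fold change was -0.90 (SE 0.21, 1.87-fold lower, adjusted p 0.00282 by edgeR), and -0.70 (adjusted p 0.0105 by edgeR) with the length and GC offset. Over 13 alternative settings it stayed between -1.0 and -0.70, and it was called in each. The level was under 2 CPM in every library.

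The motile cilium genes around Foxj1 were mostly low. Of 30 listed, 21 were tested, 6 were called higher and 4 lower, and the median was -0.04 (0.04 with library size alone, 0.01 without WT A). The upstream regulator Mcidas had no count in any library, and Gmnc, with 1.28 ± 0.384 CPM in R783H against 1.89 ± 0.310 CPM in WT, was not called (adjusted p 0.0549 by edgeR). Rfx3, a partner of Foxj1 at cilium genes, rose from 3.39 ± 0.640 CPM in WT to 7.43 ± 0.996 CPM in R783H (log2 fold change 1.14, SE 0.15, adjusted p 5.72e-05 by edgeR), and Rfx2 rose slightly (0.17, SE 0.05, adjusted p 0.0129 by edgeR). Myb, which has a role early in multiciliated cells and a broad one in blood, rose by 1.06 (SE 0.10, adjusted p 3.85e-06 by edgeR). Ccdc40, needed to build the axoneme, fell from 2.74 ± 0.472 CPM in WT to 1.29 ± 0.144 CPM in R783H (-1.08, SE 0.19, adjusted p 3.82e-04 by edgeR). Hydin (-0.64, adjusted p 1.03e-04 by edgeR) and Ak7 (-0.63, adjusted p 3.61e-05 by edgeR), both better counted than Ccdc40, also fell. Tekt1 rose (0.76, adjusted p 2.06e-05 by edgeR). Foxj1, Ccdc40, Hydin and Ak7 thus fell, while Rfx3, Rfx2, Myb and Tekt1 rose.

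Mpdz (Entrez 17475, chr4:81278500-81442815, - strand) encodes MUPP1, a scaffold of many PDZ domains at tight junctions. Its values were 2.76, 2.71 and 2.70 CPM in R783H and 3.61, 3.06 and 2.91 CPM in WT. Counts were few, at 77 to 83 in the R783H libraries and 62 to 75 in the shallower WT libraries. In CPM the R783H libraries were all lower, but the gene was not called (log2 fold change -0.22, 95% interval -0.53 to 0.08, adjusted p 0.175 by edgeR). Under the length and GC offset the gene was called lower, at -0.43 (adjusted p 0.0147 by edgeR).

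Its close relative Patj, whose product has the same type of scaffold, had 17.4, 18.01 and 16.3 CPM in R783H and 5.20, 5.02 and 6.23 CPM in WT. It was 3.15-fold higher (log2 fold change 1.65, SE 0.10, adjusted p 1.82e-07 by edgeR), and 1.46 with the offset. Of 23 tested polarity and tight junction genes, 12 passed as higher and 5 as lower (2 with library size alone), and the median was 0.27. Among all tested genes 33.5% were called higher and 30.9% lower. Tjp3, another junction scaffold, rose from 9.53 ± 0.473 CPM in WT to 26.2 ± 1.23 CPM in R783H (1.45, SE 0.07, adjusted p 7.65e-08 by edgeR). Cldn7, a claudin of epithelial junctions, rose from 3.23 ± 0.153 CPM in WT to 8.76 ± 0.154 CPM in R783H (1.44, SE 0.10, adjusted p 5.55e-07 by edgeR). Mpdz was thus not among the genes of its group that rose.

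Ap1s2 (Entrez 108012, chrX:163909017-163933666, + strand) encodes a small subunit of the AP-1 adaptor, which loads clathrin-coated vesicles at the Golgi and endosomes. It had 43.4, 39.9 and 45.0 CPM in R783H and 42.1, 42.4 and 46.8 CPM in WT, and the groups overlapped. The log2 fold change was -0.03 (95% interval -0.17 to 0.11, adjusted p 0.663 by edgeR). Both other small subunit genes were lower. Ap1s1 averaged 78.3 ± 10.5 CPM in R783H against 99.0 ± 4.64 CPM in WT (-0.34, SE 0.08, adjusted p 0.00357 by edgeR), with R783H B, at 90.2 CPM, nearest to WT, and with the length and GC offset its change was -0.17. Ap1s3 was at 1.10 ± 0.248 and 1.77 ± 0.349 CPM (-0.69, SE 0.23, adjusted p 0.0203 by edgeR), and its call was lost without R783H A, without WT B and without WT C. Over the 14 AP-1 and clathrin genes, 6 were called higher and 6 lower. The epithelial subunit gene Ap1m2 (0.82, SE 0.07, adjusted p 2.37e-06 by edgeR) and Synrg, a partner of the complex (0.75, SE 0.06, adjusted p 2.32e-06 by edgeR), both rose. Ap1m1, at 106.1 CPM in WT against 12.6 CPM for Ap1m2, fell (-0.35, SE 0.07, adjusted p 7.22e-04 by edgeR). Arf1 fell as well (-0.51, SE 0.05, adjusted p 2.70e-06 by edgeR).

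**Figure D5:**
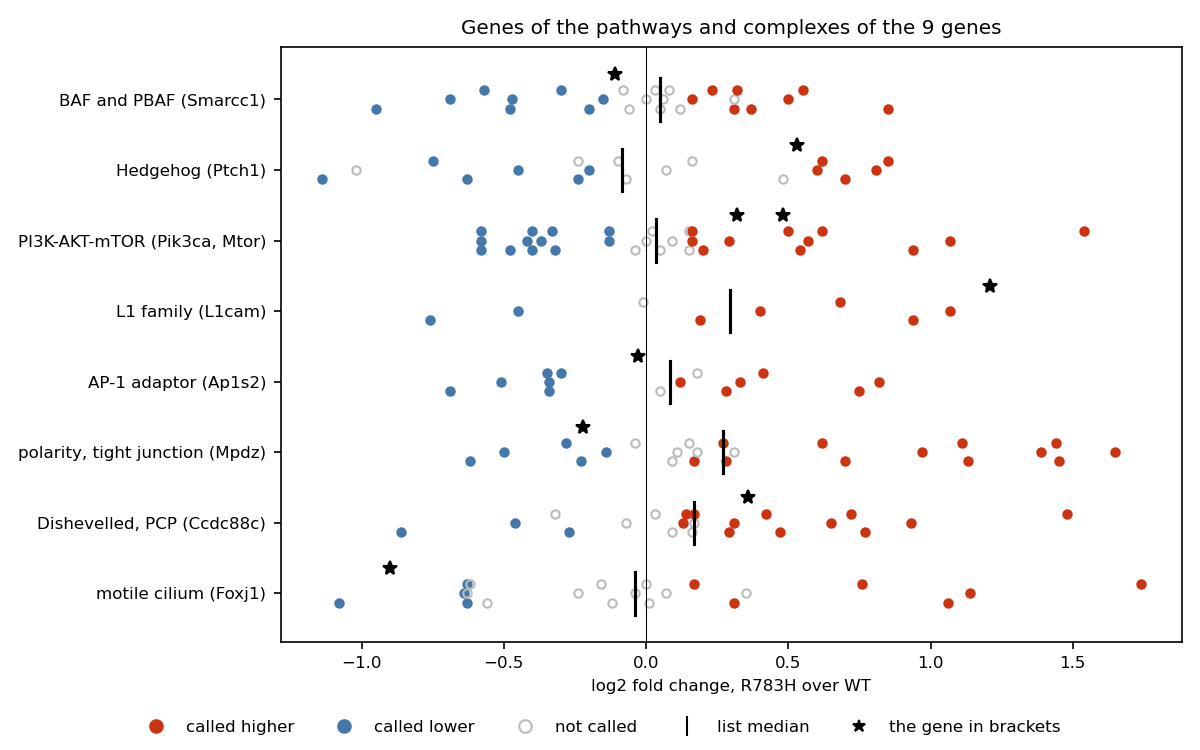
Log2 fold changes (R783H over WT, horizontal axis) of the tested genes in the 8 pathway and complex lists, coloured by call, with a bar at each list median and a star for the gene named in brackets. All 8 lists hold increases and decreases, and Mpdz lies left of its list's median of 0.27 while Ptch1 lies right of its list's median of -0.09.

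A further list of 30 genes linked to hydrocephalus or enlarged ventricles in patients or mice, of which 28 were tested and some also stand in the lists above, had 12 that passed as higher and 5 as lower, and its median was 0.13. Ccnd2, a cyclin of cortical progenitors, fell from 3.83 ± 0.882 CPM in WT to 1.56 ± 0.482 CPM in R783H (log2 fold change -1.29, SE 0.23, adjusted p 4.75e-04 by edgeR). Crb2, an apical polarity gene, rose from 1.18 ± 0.0761 CPM in WT to 2.56 ± 0.434 CPM in R783H (1.11, SE 0.19, adjusted p 4.15e-04 by edgeR), and Rfx3, described with Foxj1, was the other of the 3 named. The changes in this list went both ways, as among all tested genes, of which 33.5% were called higher and 30.9% lower.

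Likeness over the 6 libraries was measured as the distance between log2 CPM values after each gene's mean was removed, among 12401 genes averaging at least 1 CPM. Among the 9 genes, Mtor and Ccdc88c were closest (distance 0.103), followed by Smarcc1 and Ap1s2 (0.168). The nearest gene in the whole table was Rnf216 for Ptch1 (0.0634), Herc1 for Pik3ca (0.0997), Eif2ak4 for Mtor (0.0442), Jag1 for Ccdc88c (0.0319) and Slc2a4 for L1cam (0.0477). For the others it was Cdk11b for Smarcc1 (0.0317), Rab18 for Ap1s2 (0.0422), Trex1 for Mpdz (0.0676) and Pus7l for Foxj1 (0.147). With so many genes to choose from, a near neighbour is a description of these libraries alone.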

How the data were processed

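Poly(A)-selected RNA of 3 R783H and 3 WT libraries was compared, grouped by their titles. The authors deposited raw counts per Entrez gene, whole numbers without normalization, in a single table with 6 library columns and 0 columns unassigned. The submitters' processing notes name the build mm10, CASAVA 1.4, HISAT2 and SAMtools. The counting tool, annotation and strand setting are not given in the sources used here, so reads of overlapping genes may be merged. Besides those given in the text, Itgav (5.90% of exon bases, Gm13684) and Myb (6.26%, Gm26577) overlap antisense genes. Symbols came from RefSeq (GRCm38.p6; 25275 of 27179 identifiers matched), and length, GC content and coordinates from GENCODE M21 on GRCm38, the same assembly as mm10.

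Genes were kept with filterByExpr (minimum count 10, minimum total 15), scaled with TMM factors and tested with edgeR 4.0.16 (R 4.3.3) by the quasi-likelihood test, with group as the single term and Benjamini-Hochberg adjustment over 14199 genes. SE is the log2 fold change divided by the square root of F, and 95% intervals use the test's degrees of freedom. CPM are counts per 1e6 after TMM scaling. The length and GC offset is a smooth fit (mgcv 1.9.3) of each library's deviation, for 13067 genes. Alternatives were DESeq2 1.42.0, other scalings and filters, the replicate letter as a block, and leaving out each library. On simulated data of 14199 genes the fit called 93 of 100 genes changed 2-fold and 79 of 100 changed 1.5-fold, with 8 calls among unchanged genes. The simulation changed far fewer genes than the 64.5% called in the data, so these rates need not hold there. A planted length trend gave 5730 calls, and 0 with the offset. That trend had a form that the offset fits, so this outcome does not test the offset on the real libraries. Totals of 20894277 to 29079670 counts put the floor of 3 counts at 0.103 to 0.144 CPM. The sources used here name no molecular identifiers, and floors therefore cover counting error alone. BLAST 2.17.0 found transcript stretches of at least 100 nt at 98% identity or more in another gene only for Ccdc88c and its antisense A630072L19Rik.

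The members and lists were chosen with earlier results of these data known. Named genes are the 9 members, the 3 strongest called genes of each list (by absolute log2 fold change, averaging 1 CPM or more), the nearest gene of each member, and paralogs or partners listed by name, of which not all are reported here. Otx2, Stmn2, Tubb3, Dcx, Tmem212, Rarres2, Gata4, Sox17, Sox7, Thy1 and Col1a2 were named as markers. So were Nanog, Dppa5a, Sox1, Nes, Pax6 and Map2. Arhgap4, Dhx30 and A630072L19Rik were named because their exons overlap a member's. Hydin, Ak7 and Tekt1 were named as further called motile cilium genes. Akt1, Rheb, Pik3r2, Tbc1d7, Ap1m1 and Arf1 were named as further genes called lower in their lists.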

Additional observations from a re-analysis of the deposited data

How the results depend on the processing

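The calls and directions of Ptch1, Pik3ca, Mtor, Ccdc88c, L1cam and Foxj1 were the same under all 13 alternatives, and 5 members were called higher in each. Smarcc1 was the exception among the called members. Its log2 fold change was -0.03 with library size alone, -0.10 without a low-count filter, -0.11 (adjusted p 0.0528 by edgeR) with the replicate block, and -0.13 to -0.09 with a library left out, where the call was lost except without R783H B. In the fits that lost it, 1 member was called lower in place of 2, and the offset for length and GC gave 3. With a library left out the number ran from 1 to 2. Ap1s2, never called, was 0.05 with library size alone and -0.08 to 0.01 with a library left out. Its value under the length and GC offset was -0.11 (adjusted p 0.0551 by edgeR). Among the alternatives, Mpdz passed only under the length and GC offset (-0.43). Trim71, not called otherwise, was called lower under that offset (-0.21, adjusted p 0.0127 by edgeR), which also took the BAF, PI3K and AP-1 medians to -0.02, -0.07 and -0.01. Trim71 ran from -0.02 to 0.13 with a library left out. The motile cilium median was 0.04 with library size alone and 0.01 without WT A, and over the fits with a library left out the PI3K median lay between -0.02 (no R783H A) and 0.06 (no WT C). All called genes numbered 8161 to 9882 over the alternatives. Library size alone moved the median of all genes from 0.03 to 0.11 and the share of calls that were higher from 52.0% to 61.2%. Replicate letters did not pair the libraries: deviations of same-lettered libraries correlated at -0.07, 0.007 and 0.085 across genes, and not every library correlated best with its own letter. The block gave 9260 calls in place of 9152. Depth limits L1cam and Foxj1 most, at 12 to 53 and 22 to 38 counts a library. No result met the rules for a closer look, since groups of 3 are too small for an outlier test. The libraries were not equally alike, however. Chi-squared per degree of freedom between 2 libraries was 11.3 and 12.4 for R783H B against R783H A and C. It was 2.19 between R783H A and C, and 2.0 to 4.53 between WT libraries. Leaving out R783H B gave 9882 calls, the most of all settings. Why R783H B stood apart was not tested.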
